A study of Mus musculus with 12 samples.

Results

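The genes of phase II conjugation described here are the Gst, Sult and Ugt genes, chosen by symbol: cytosolic and kappa class glutathione S-transferases, cytosolic sulfotransferases and UDP-glycosyltransferases of families 1 to 3 that reached at least 1 FPKM (fragments counted for a gene, scaled by transcript length and by the fragments of the library) in at least 3 of 12 libraries. Of the 23183 gene symbols measured, 60 had a matching name and 37 of these passed the threshold, namely 19 of 21 Gst, 7 of 19 Sult and 11 of 20 Ugt symbols. The libraries were made from kidney cortex of male C57BL/6 mice (substrain C57BL/6N in the study's methods), aged 6 to 7 weeks, on day 7 after unilateral ureteral obstruction (UUO), an operation in which the ureter of 1 kidney is tied. The 4 groups of 3 libraries were the contralateral kidneys of wild-type mice (WT CL), the obstructed kidneys of wild-type mice (WT UUO), and the contralateral and obstructed kidneys of mice without a working Acot12 gene (Acot12-/- CL and Acot12-/- UUO). Acot12 encodes an acyl-CoA thioesterase, and the deletion was global and carried through the germline from a nuclease-induced allele, so that every cell type of these mice lacked it and a change in 1 cell type cannot be told apart from one in the others. The contralateral kidney stood in for a control and no kidney of an unoperated mouse was analysed here.

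Phase II enzymes attach a water-soluble group to drugs, hormones and the products of metabolism, which makes them easier to excrete. The Ugt enzymes use UDP-sugars, mostly UDP-glucuronate, in the endoplasmic reticulum, the Sult enzymes take a sulfonate group from PAPS in the cytosol, and the Gst enzymes join glutathione to electrophiles. In the kidney, much of this work is done by the proximal tubule, which also takes up the substrates from blood and exports the conjugates.

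Acot12 went with the labels: in wild-type mice it ranged from 52.7 to 78.1 FPKM (CL) and from 9.98 to 21.2 (UUO), and in mice without the gene from 6.80 to 9.15 (CL) and from 1.80 to 3.86 (UUO). In counts of 1e6 fragments, the depth recovered from the smallest steps of the FPKM values ranged from 12.3 to 16.3 for CL kidneys and from 18.5 to 23 for UUO kidneys. The total FPKM of a library was 799670 to 977981 in the CL groups and 491078 to 686425 in the UUO groups. The library Acot12-/- CL replicate 2 stood apart from its group on the second principal component, and results that rest on it are given with and without it. Genes used as proximal tubule markers, all 13 of which were detected, summed to 2459 to 3136 FPKM in WT CL and 2958 to 4970 in Acot12-/- CL. Nothing in the labels says which libraries came from the same mouse, and p-values measure the spread between these kidneys.

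FPKM are scaled by transcript length, so levels can be set side by side between genes. In WT CL kidneys the 5 highest members were Ugt2b38 with 848 ± 173 FPKM (mean ± SD, n = 3), Ugt3a2 with 726 ± 130, Sult1d1 with 563 ± 55.4, Gstm5 with 319.6 ± 24.2 and Gstm1 with 302 ± 56.2. The spread of the first and the second of these overlapped, since Ugt2b38 ranged from 672 to 1018 and Ugt3a2 from 599.5 to 858. In WT UUO kidneys the order was different, with Gstm1 first at 258 ± 24.0 FPKM, then Gstm5 at 161 ± 9.22, Gsta2 at 128 ± 31.7 and Gstp1 at 124 ± 18.4. The same 4 genes led Acot12-/- UUO kidneys apart from Sult1d1, which took the fourth place at 129 ± 33.8 FPKM beside 123.3 ± 35.8 for Gstp1. Of the members, 25 were at or above 1 FPKM in every library, 15 of them Gst, 7 Ugt and 3 Sult.

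**Figure D1:**
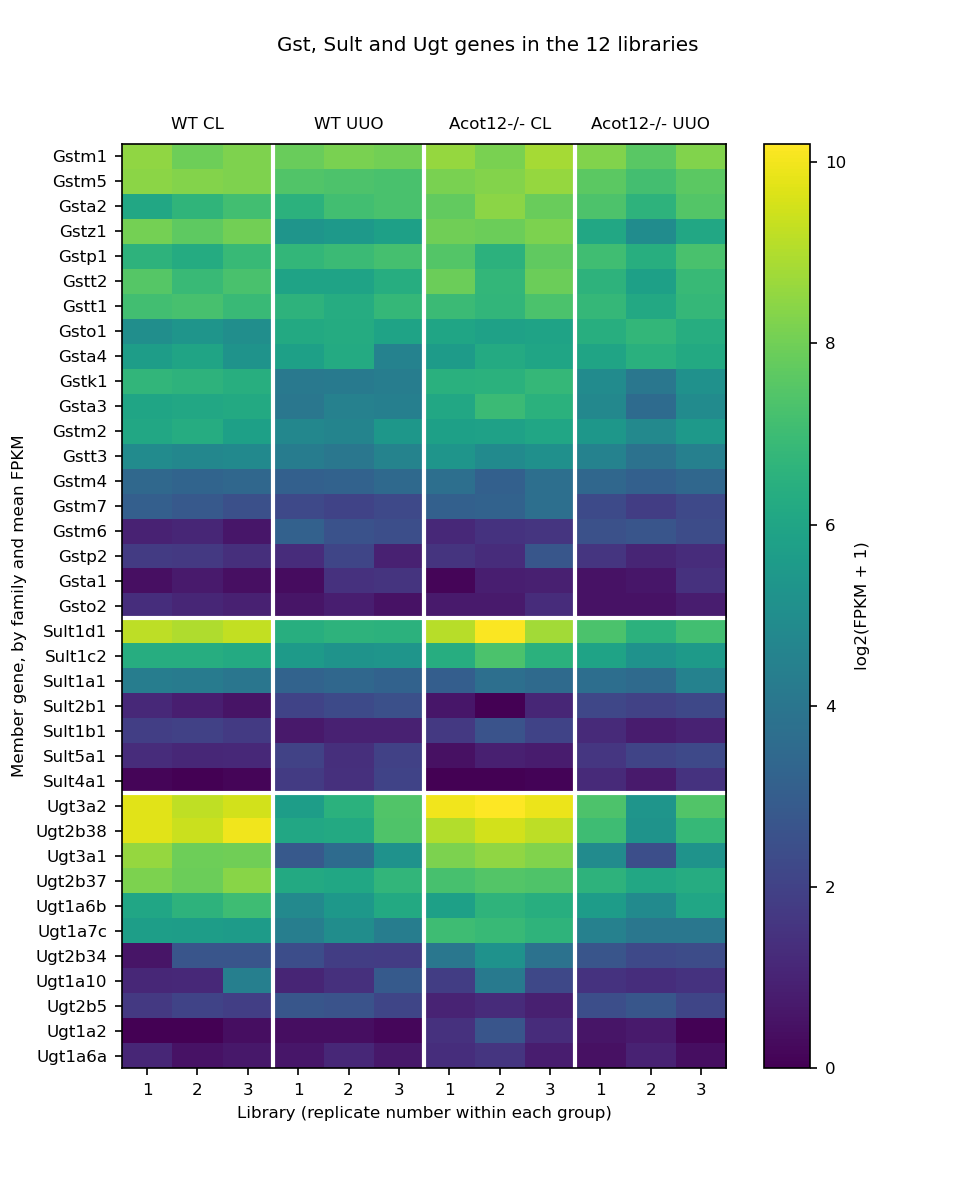
Level of the 37 Gst, Sult and Ugt genes in each library, as log2(FPKM + 1) on the colour scale, with genes in rows by family and mean and the 12 libraries in columns by group. Ugt3a2, Ugt2b38 and Sult1d1 have high values in the CL columns and lower ones in all 6 UUO columns, while Sult1d1 is highest, at 1135 FPKM, in Acot12-/- CL replicate 2.

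The genes at the edge of the threshold were low throughout. Gsta1, Gsto2 and Ugt1a2 reached 1 FPKM in exactly 3 libraries, Ugt1a6a in 4 and Sult4a1 in 5. Ugt1a2 reached it in Acot12-/- CL libraries alone, Gsta1 and Sult4a1 in UUO libraries alone and Gsto2 in CL libraries alone, so differences of these 4 genes between those groups are in part set by the threshold and are given as descriptions, with no test. Sult1b1 reached it in all 6 CL and 1 UUO library, and Sult2b1 in all 6 UUO and 2 CL libraries. Neither would have passed without the kidneys where it was high, so their differences between UUO and CL are given as descriptions too. The same holds for Ugt1a6a, which would not have passed without its Acot12-/- CL libraries. Just outside were Sult2a3, with at most 2.17 FPKM, and Ugt1a9, with at most 4.45 FPKM, which each reached 1 FPKM in 2 libraries, and Ugt1a1, the bilirubin transferase, which reached it in 1 library at 2.05 FPKM. Of the 60 symbols, 9 were listed at 0 in all libraries, among them 8 Sult genes, which include Sult2a1 and Sult3a1.

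Most members lie in clusters of related genes (GENCODE vM21, GRCm38). The 5 Ugt1a members lie at chr1:88055388-88220002 and share their last exons, each with a first exon of its own. The 4 Ugt2b members lie within chr5:86889767-87424203 on the minus strand, close to Sult1b1 and Sult1d1 at chr5:87513339-87569027, and Ugt3a1 and Ugt3a2 are neighbours at chr15:9276888-9370955. The 6 Gstm members lie at chr3:107895821-108044894, the 3 Gstt members at chr10:75774115-75837424, and Gsta4, Gsta1 and Gsta2 at chr9:78182774-78355788. Related members can share reads, and how the service provider assigned such reads is not given in the sources used here. As a measure of this, 50.4% to 70.9% of the stretches of 100 bases in the transcripts of the 5 Ugt1a members also occur in another gene, against 0.28% for Ugt2b34, 1.06% for Ugt2b37, 24.2% for Ugt2b38 and 24.7% for Ugt2b5. The share was 80.6% for Gsta1, 28.4% for Gsta2, 25.1% for Gstp1 and 46.9% for Gstp2, and it was 0% for Gsta3, Gstk1, Gsto1, Gstz1, Sult1d1, Ugt3a1 and Ugt3a2. Values of Ugt1a genes and of Gsta1, Gsta2, Gstp1, Gstp2, Ugt2b38 and Ugt2b5 are therefore uncertain as values of single genes.

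Promoters are shown because 16 members fell together in both genotypes, as described further on. RefSeq starts (GRCm38.p6) were found for 32 of the 37 members, and the 250 bases before each start were searched on both strands for 3 motifs. TGACNNNGC, the core of the antioxidant response element to which NRF2 binds, was found for 3 of 32 members (9.38%) and for 11.5% of the 27025 genes whose promoters were searched. GCGTG, the core of the xenobiotic response element, was found for 7 of 32 members (21.9%) and for 30.9% of all genes. The letters GTTAAT, then any base, then ATT, part of the site of the tubule factor HNF1, were found for 2 of 32 members (6.25%) and for 0.440% of all genes. The 5 stretches with the first and the last motif are printed 5′ to 3′ on the strand of the gene, with the motif or its reverse complement in capitals, and come from chr1:21240444-21240492 (Gsta3), chr3:107895792-107895840 (Gstm5), chr3:107931715-107931763 (Gstm7), chr5:87569056-87569105 (Sult1d1) and chr1:88055316-88055365 (Ugt1a10, motif on the opposite strand). A match describes these letters only.
Gsta3: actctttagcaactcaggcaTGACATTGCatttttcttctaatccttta
Gstm5: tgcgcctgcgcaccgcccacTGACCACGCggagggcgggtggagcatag
Gstm7: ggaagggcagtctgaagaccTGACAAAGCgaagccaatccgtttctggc
Sult1d1: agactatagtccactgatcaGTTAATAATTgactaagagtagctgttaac
Ugt1a10: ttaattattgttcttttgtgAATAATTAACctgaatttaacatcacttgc
The first 4 of these genes were all called lower in UUO than in CL kidneys of both genotypes, and Ugt1a10 in neither. Of all 37 members 16 were called lower in both. Among the 7 members with GCGTG, Gstm5, Sult1b1 and Sult1d1 were called lower in both and Sult2b1 higher in both. Gsta2 was called lower in Acot12-/- alone, and Gstm1 and Gstp1 in neither. The calls of Sult1b1 and Sult2b1 follow in part from the threshold. A link between motifs and calls was not tested.

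The first question was how conjugation genes differed between obstructed and contralateral kidneys. In WT mice 25 of 37 members were called at a limma adjusted p under 0.05, 6 of them higher and 19 lower in UUO. In Acot12-/- mice 26 were called, 6 higher and 20 lower. Over all 13243 genes tested the share called was 47.5% in WT, with 23.6% higher and 23.9% lower, and 53.7% in Acot12-/-, with 26.6% higher and 27.2% lower. The median log2 fold change of the members was -0.50 in WT and -0.84 in Acot12-/-, beside 0.01 and -0.01 over all genes. The same 6 members were called higher in both genotypes (Gstm6, Gsto1, Sult2b1, Sult4a1, Sult5a1 and Ugt2b5), 16 were called lower in both, and none was called in opposite directions. These counts hold Sult2b1 and Sult4a1 among the higher genes and Sult1b1 among the lower ones. Also among the lower ones are Gsto2 in WT, and Ugt1a2 and Ugt1a6a in Acot12-/-. None of these would have passed the threshold without the kidneys where they were high, so their calls follow in part from it. At an unadjusted p under 0.05 there were 26 members in each genotype, beside 54.4% of all genes in WT and 58.9% in Acot12-/-. The UUO libraries of 6 members lay wholly above and those of 19 wholly below the CL libraries in WT, where 35.5% and 35.8% of all genes did, and the counts were the same in Acot12-/-, where 27.8% and 27.6% of all genes did. In bulk tissue, fewer cells of a type and less RNA per cell cannot be told apart. Beside these counts, 12 of 13 proximal tubule markers were called lower in WT and all 13 in Acot12-/-, with sums of 453 to 844 FPKM in WT UUO and 289 to 1026 in Acot12-/- UUO, and all 10 genes used as markers of injured tubule were called higher in both. Of 10 markers of the thick limb and distal nephron 9 were called lower in WT and 8 in Acot12-/-, with none higher. Of 10 macrophage markers 9 and 10 were called higher, and of 10 fibroblast markers 7 and 10. Lymphocyte markers had 4 of 5 tested called higher in each genotype, while of 9 endothelial markers 1 was called higher and 4 lower in WT, and 7 higher and none lower in Acot12-/-. Some marker counts also follow in part from the threshold. Krt20 (injured tubule), Itgam (macrophage), Cd3e and Cd4 (lymphocyte) and Fbln2 (fibroblast) would not have passed it without their UUO libraries. The part of the change in cell types in the members' values was not tested.

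The split of the calls depended on the scaling. With every library set to the same total FPKM, the median log2 fold change of all genes was 0.62 in WT and 0.45 in Acot12-/-. Under that scaling 19 members were called in WT, 10 higher and 9 lower, where 56.1% of all genes were called higher and 7.91% lower. In Acot12-/- 19 members were called, 7 higher and 12 lower, beside 45.9% and 11.7% of all genes. Relative to the median of all genes, 25 members lay below it in WT as deposited and 28 under equal totals, and in Acot12-/- 28 and 29. Median-ratio scaling left 25 and 26 members called, with the same numbers in each direction.

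**Figure D2:**
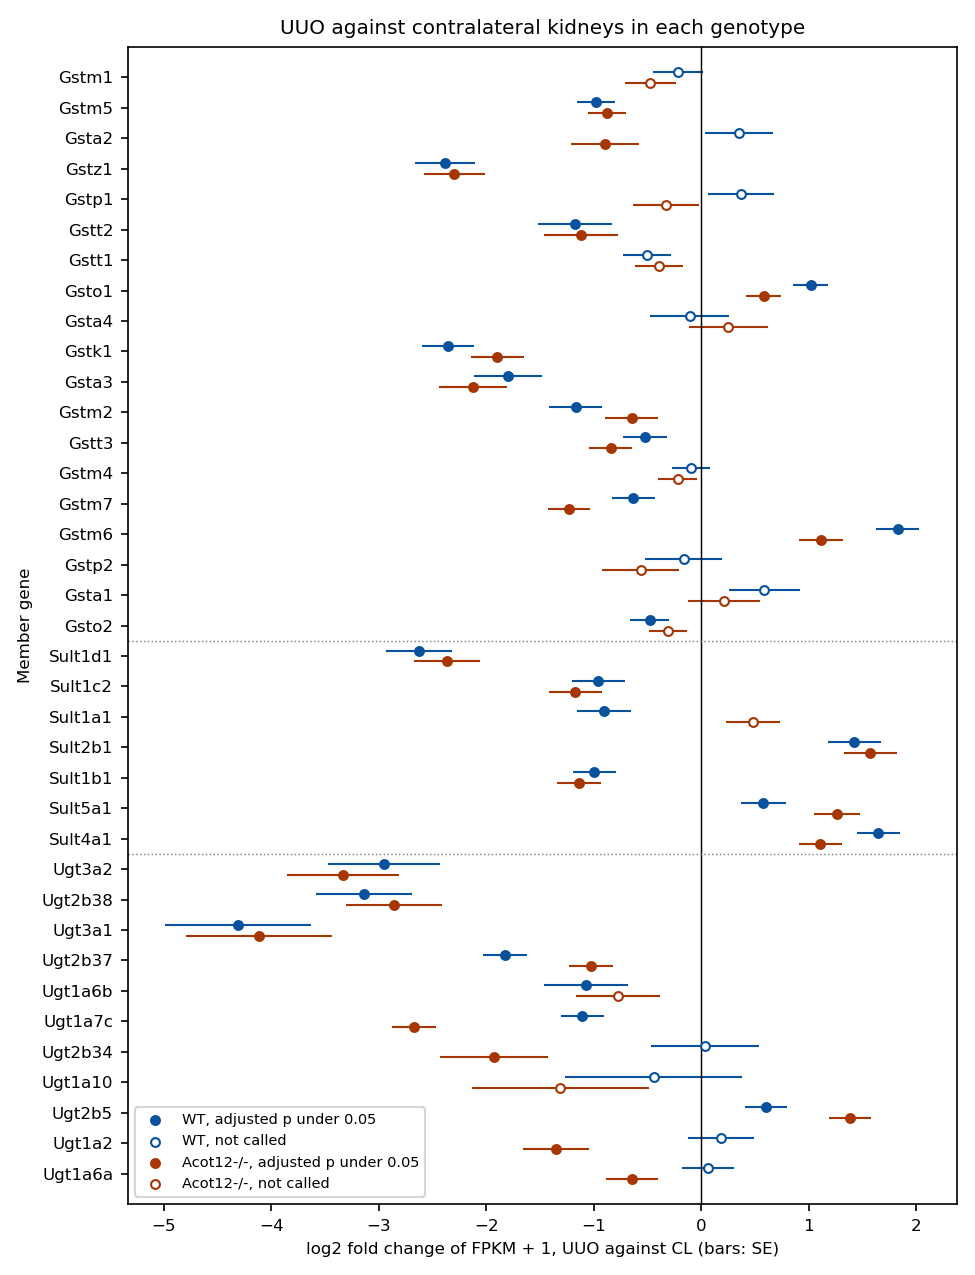
Log2 fold change of FPKM + 1 between UUO and CL kidneys for each member, in WT (blue) and Acot12-/- (brown) mice, with the standard error of the limma fit as bars and filled points for an adjusted p under 0.05. Ugt3a1 has the lowest points, at -4.31 and -4.11, and 6 genes have filled points above 0 in both genotypes.

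The Ugt genes, which conjugate glucuronic acid and other sugars, had the lowest ratio of UUO to CL among the 3 families. The summed FPKM of the 11 members went from 2318 ± 346 to 389 ± 174 between the WT groups and from 2364 ± 314 to 398 ± 167 between the Acot12-/- groups. The UUO mean was thus 16.8% of the CL mean in both genotypes, and 27.1% and 24.1% when each sum was taken as a share of the total FPKM of its library. In WT 6 Ugt members were called lower, 1 higher and 4 neither, and in Acot12-/- 8 were called lower, 1 higher and 2 neither. The 8 include Ugt1a2 and Ugt1a6a, which would not have passed the threshold without Acot12-/- CL libraries.

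**Figure D3:**
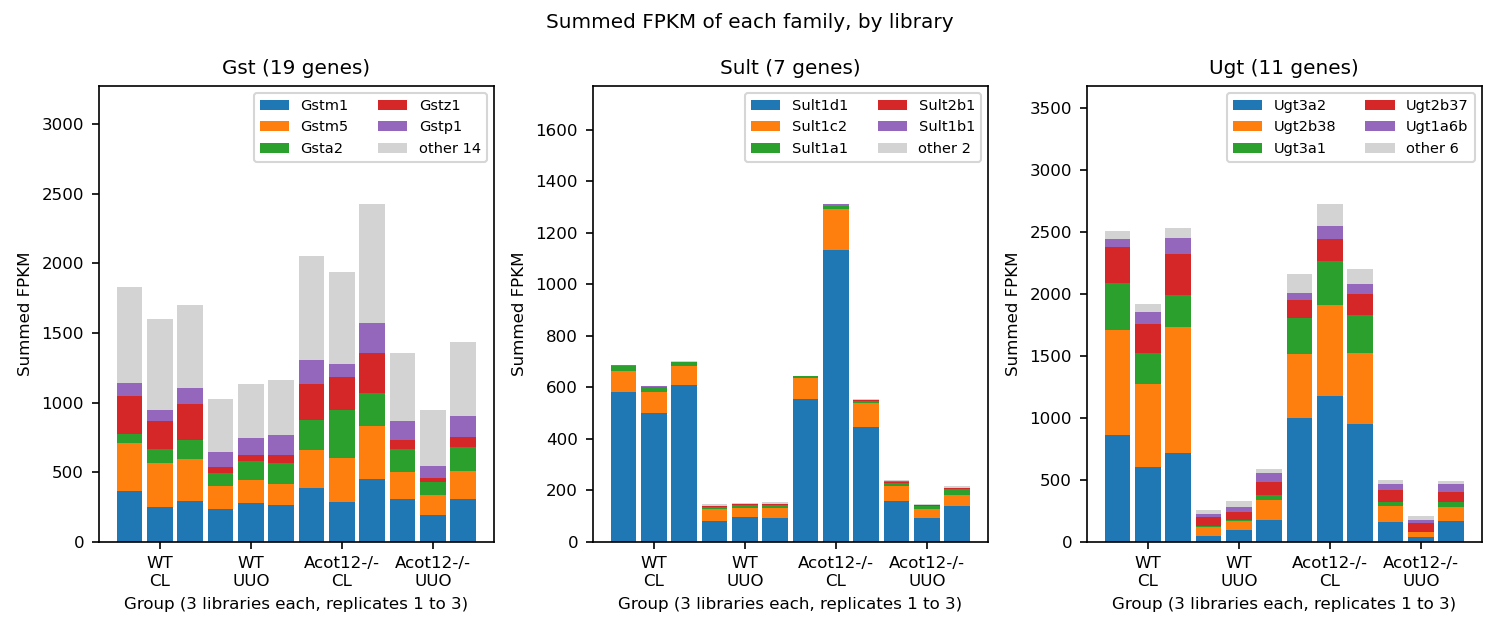
Summed FPKM of the Gst, Sult and Ugt members in each of the 12 libraries, with the 5 highest genes of each family as coloured segments and the others in grey; each panel has its own axis from 0. The Ugt sums lie between 1918 and 2726 in the 6 CL libraries and between 205 and 585 in the 6 UUO libraries, while the Gst sums lie between 1598 and 2426 and between 944 and 1434.

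Ugt3a1 and Ugt3a2, which use sugars other than glucuronate, fell in both genotypes. Ugt3a1 measured 379, 249 and 253 FPKM in the 3 WT CL libraries and 6.17, 10.7 and 36.0 in WT UUO. In Acot12-/- it measured 287, 359 and 311 in its CL libraries against 29.4, 4.40 and 37.1 with obstruction, so that no UUO library came near a CL library. Its log2 fold change was -4.31 (SE 0.68, limma adjusted p = 0.000313) in WT and -4.11 (SE 0.68, adjusted p = 0.000302) in Acot12-/-. Ugt3a2 measured 858, 599.5 and 719 FPKM in WT CL and 49.8, 91.3 and 171 in WT UUO. In Acot12-/- it measured 1001, 1177 and 946 in its CL libraries against 160.4, 38.7 and 169.8 with obstruction, again with every UUO library below every CL library. Its log2 fold change was -2.95 (SE 0.52, adjusted p = 0.000697) in WT and -3.33 (SE 0.52, adjusted p = 0.00021) in Acot12-/-. The library Acot12-/- UUO replicate 2 was the lowest of its group for both genes, and it also had the lowest proximal tubule marker sum, 289 FPKM.

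Among the Ugt2b genes, whose products conjugate steroids and bile acids, the abundant members fell and 1 low member rose. Ugt2b38 measured 854, 672 and 1018 FPKM in WT CL against 69.0, 71.9 and 169 in WT UUO, and in Acot12-/- mice 519, 733 and 573 against 131, 37.0 and 113. The log2 fold changes were -3.13 (SE 0.45, limma adjusted p = 0.000167) and -2.86 (SE 0.45, adjusted p = 0.000207). Ugt2b37 measured 291, 241 and 333 FPKM in WT CL against 73.2, 66.4 and 105 in WT UUO, with a log2 fold change equal to -1.83 (SE 0.21, adjusted p = 3.94e-05). In Acot12-/- mice it measured 148, 178 and 169 FPKM in its CL libraries against 96.4, 69.1 and 77.6 with obstruction, with a log2 fold change equal to -1.03 (SE 0.21, adjusted p = 0.00119), which was not called under equal totals (-0.48, adjusted p = 0.0856). Ugt2b5 went the other way from a low level, from 2.25, 3.17 and 2.70 FPKM to 5.60, 5.09 and 3.38 in WT, and from 1.00, 1.40 and 0.85 to 4.54, 5.57 and 3.38 in Acot12-/-. The groups did not overlap, and the log2 fold change was 0.60 (SE 0.20, adjusted p = 0.0233) in WT and 1.39 (SE 0.20, adjusted p = 0.000101) in Acot12-/-. The WT call was lost without WT CL replicate 1 or 3 or WT UUO replicate 1 or 2. Ugt2b5 shares 24.7% of its stretches of 100 bases with other genes, chiefly Ugt2b38, which fell.

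The Ugt1a genes, which include transferases of phenols and bilirubin, went as a group from a summed 155 ± 39.1 FPKM to 74.6 ± 25.3 in WT and from 207 ± 29.8 to 67.3 ± 18.3 in Acot12-/-. Ugt1a7c was called lower in both genotypes, and its values are given with the comparison of the genotypes. Ugt1a6b, a phenol transferase, ranged from 65.2 to 129 FPKM in WT CL and from 26.9 to 72.2 in WT UUO, which overlapped, and was called lower in WT (log2 fold change -1.07, SE 0.39, limma adjusted p = 0.0389) but not in Acot12-/- (-0.77, SE 0.39, adjusted p = 0.114). The WT call was lost in 7 of 20 alternatives, equal totals among them. The difference between these changes was 0.30 (SE 0.55, adjusted p = 0.944). Ugt1a10 was uneven among replicates, with 1.19, 1.28 and 20.03 FPKM in WT CL and 2.63, 17.4 and 3.60 in Acot12-/- CL, and was called in neither genotype. Ugt1a6a, at 0.29 to 1.97 FPKM, would not have passed the threshold without its Acot12-/- CL libraries. As a description, its log2 fold change in Acot12-/- was -0.64 (SE 0.24). Its call there was lost in 7 of 20 alternatives, among them the fit without Acot12-/- CL replicate 2, and it was not called in WT.

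The Sult members, which add sulfonate, are given by class. The 4 Sult1 members, which sulfonate phenols, catecholamines and thyroid hormones, summed to 662 ± 51.5 FPKM in WT CL and 140.4 ± 3.00 in WT UUO, and to 835 ± 414 in the CL and 192 ± 47.3 in the UUO kidneys of Acot12-/- mice. In WT all 4 were called lower, and in Acot12-/- 3 of 4 were. Both counts hold Sult1b1, which would not have passed the threshold without its CL libraries. Sult1d1, which acts on catecholamines, measured 581, 501 and 607 FPKM in WT CL and 82.2, 95.4 and 93.4 in WT UUO, with a log2 fold change equal to -2.63 (SE 0.30, limma adjusted p = 4.67e-05). In Acot12-/- it measured 554, 1135 and 446 FPKM in its CL libraries against 159, 92.5 and 137 with obstruction, with a log2 fold change equal to -2.37 (SE 0.30, adjusted p = 5.22e-05). The 3 CL libraries of Acot12-/- differed by more than the WT ones, with a high value in replicate 2, and all 3 lay above every UUO library.

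Sult1c2 measured 74.9 to 81.4 FPKM in WT CL, 36.4 to 45.7 in WT UUO, and for the Acot12-/- groups 80.7 to 159 against 35.9 to 59.2, so that CL and UUO did not overlap. Its log2 fold changes were -0.96 (SE 0.25, limma adjusted p = 0.0071) and -1.17 (SE 0.25, adjusted p = 0.00163), and both calls were lost under equal totals. Sult1b1, which acts on thyroid hormones, measured 2.29 to 2.89 FPKM in WT CL and 0.63 to 0.93 in WT UUO, and for the Acot12-/- groups 2.28 to 5.05 against 0.71 to 1.32. As it would not have passed the threshold without its CL libraries, its log2 fold changes of -0.99 (SE 0.20) and -1.14 (SE 0.20) are a description.

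The 3 Sult members outside the first class were low in CL kidneys and higher with obstruction in both genotypes. As membership itself favours a rise for Sult2b1 and Sult4a1, no rule by class follows. Below the threshold, Sult2a3 went from a mean of 0.690 FPKM in CL to 0.0233 in UUO in WT, and from 0.993 to 0.166 in Acot12-/-. Sult6b1 went up, from 0.154 to 0.267 and from 0.106 to 0.313. Sult2b1, which sulfonates cholesterol and related sterols, measured 1.24, 0.81 and 0.47 FPKM in WT CL and 3.15, 3.89 and 4.64 in WT UUO, and in Acot12-/- mice 0.52, 0 and 1.16 against 3.55, 3.06 and 3.70. Every UUO library lay above every CL library. Sult2b1 would not have passed the threshold without its UUO libraries, so its log2 fold changes of FPKM + 1, 1.42 (SE 0.25) and 1.58 (SE 0.25), are a description. Sult4a1, known from the brain, passed the threshold only through UUO libraries and was listed at 0 to 0.104 FPKM in the 6 CL libraries. It measured 2.39, 1.64 and 3.16 FPKM in WT UUO and 1.30, 0.65 and 1.85 in Acot12-/- UUO. As a description, its log2 fold changes were 1.65 (SE 0.20) and 1.11 (SE 0.20). Their size depends on the 1 FPKM added before the logarithm. Sult5a1 measured 1.45, 1.23 and 1.29 FPKM in WT CL and 3.07, 1.59 and 2.95 in WT UUO, and in Acot12-/- mice 0.36, 0.86 and 0.73 against 2.02, 3.28 and 3.70. Its log2 fold change was 0.58 (SE 0.21, limma adjusted p = 0.0379) in WT and 1.26 (SE 0.21, adjusted p = 0.000321) in Acot12-/-. The WT call of Sult5a1 was lost when any of WT CL replicates 1, 2 and 3 or WT UUO replicates 1 and 3 was left out, and also with 0.1 FPKM added or with no filter.

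The Gst genes had the highest ratio of UUO to CL of the 3 families. Their 19 members summed to 1708 ± 116 FPKM in WT CL and 1106 ± 73.8 in WT UUO, which is 64.7% of the CL mean, and in Acot12-/- mice to 2138 ± 256 against 1245 ± 264, which is 58.2%. As a share of the total FPKM of the library the WT sum went the other way, with 0.198% ± 0.0297 in CL and 0.211% ± 0.00638 in UUO, while in Acot12-/- it was 0.248% ± 0.0203 and 0.209% ± 0.0314. In each genotype 9 Gst members were called lower, 2 higher and 8 neither; under equal totals 3 were called lower and 6 higher in WT, and 4 lower and 2 higher in Acot12-/-. The WT genes called higher under equal totals and not as deposited were Gsta2, Gstm4 and Gstp1, and also Gsta1, which reached the threshold in UUO libraries alone.

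Among the Gst members the lowest fold changes in WT were those of Gstz1 and Gstk1, each the 1 gene of its class. Gstz1, which is maleylacetoacetate isomerase in the breakdown of tyrosine, measured 270, 201 and 258 FPKM in WT CL and 38.4, 43.9 and 55.3 in WT UUO. In Acot12-/- it measured 257, 239 and 290 in its CL libraries against 68.0, 30.3 and 69.3 with obstruction, and all UUO libraries were far below all CL libraries. The log2 fold changes were -2.38 (SE 0.28, limma adjusted p = 5.16e-05) and -2.30 (SE 0.28, adjusted p = 3.73e-05). Gstk1, an enzyme of mitochondria and peroxisomes, measured 105, 94.9 and 82.4 FPKM in WT CL and 16.6, 17.1 and 18.9 in WT UUO, with a log2 fold change equal to -2.36 (SE 0.24, adjusted p = 2.52e-05). In Acot12-/- it measured 86.8, 91.3 and 111 in its CL libraries against 29.1, 15.4 and 34.7 with obstruction, with a log2 fold change equal to -1.90 (SE 0.24, adjusted p = 5.29e-05).

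The alpha class, which conjugates products of lipid peroxidation and many drugs, was mixed. Gsta3 measured 63.3, 69.2 and 71.5 FPKM in WT CL and 15.6, 21.4 and 19.9 in WT UUO, with a log2 fold change equal to -1.80 (SE 0.32, limma adjusted p = 0.000724). In Acot12-/- it measured 69.0, 124 and 91.1 in its CL libraries against 26.3, 10.7 and 29.4 with obstruction, with a log2 fold change equal to -2.12 (SE 0.32, adjusted p = 0.00016). Gsta4, which acts on reactive aldehydes from lipids, had log2 fold changes of -0.11 (SE 0.37, adjusted p = 0.825) in WT and 0.25 (SE 0.37, adjusted p = 0.587) in Acot12-/-, and Gsta2 is given with the genotypes. Gsta1 ranged from 0.106 to 1.88 FPKM over the 12 libraries and was called in neither.

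In the mu class, the abundant Gstm5 had 298 to 346 FPKM in WT CL, 152 to 171 in WT UUO, and for the Acot12-/- groups 279 to 384 against 141 to 197, with no overlap. Its log2 fold changes were -0.98 (SE 0.18, limma adjusted p = 0.000871) and -0.87 (SE 0.18, adjusted p = 0.0014), and both calls were lost under equal totals. Gstm1, the Gst gene of the highest mean, ranged from 249 to 361 FPKM in WT CL and from 233 to 280 in WT UUO, which overlapped, and was called in neither genotype (log2 fold changes -0.21 and -0.47, adjusted p = 0.478 and 0.111). Under equal totals its values were 0.52 and 0.08, so the sign for Gstm1 follows the scaling. Gstm2 was called lower in both genotypes, with log2 fold changes of -1.17 (SE 0.25, adjusted p = 0.00224) and -0.64 (SE 0.25, adjusted p = 0.0437), and so was Gstm7, with -0.63 (SE 0.20, adjusted p = 0.0202) and -1.23 (SE 0.20, adjusted p = 0.000257). In WT the call of Gstm2 was lost under equal totals, and that of Gstm7 under equal totals and without WT CL replicate 1 or 2 or WT UUO replicate 2. In Acot12-/- the call of Gstm2 was lost in 10 of 20 alternatives, equal totals and the fit without Acot12-/- CL replicate 2 among them. Gstm4, at 7.67 to 12.4 FPKM, was called in neither. Gstm6 rose from 0.97, 1.15 and 0.54 FPKM to 8.002, 4.91 and 4.47 in WT, with a log2 fold change equal to 1.83 (SE 0.20, adjusted p = 3.7e-05), and from 1.23, 1.81 and 1.95 to 4.71, 5.37 and 4.203 in Acot12-/-, with a log2 fold change equal to 1.12 (SE 0.20, adjusted p = 0.000609).

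Gsto1, an omega class enzyme that reduces dehydroascorbate, was the abundant member that rose. It measured 31.5, 38.6 and 31.5 FPKM in WT CL and 72.1, 76.9 and 60.2 in WT UUO, and in Acot12-/- mice 63.4, 57.0 and 59.0 against 84.3, 107 and 80.5. Every UUO library was above every CL library of its genotype. The log2 fold changes were 1.02 (SE 0.16, limma adjusted p = 0.000317) and 0.58 (SE 0.16, adjusted p = 0.0088). Its neighbour Gsto2, at 0.404 to 1.52 FPKM, reached 1 FPKM in CL libraries alone and had, as a description, log2 fold changes of -0.48 in WT and -0.31 in Acot12-/-.

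Of the theta class, Gstt2 and Gstt3 were called lower in both genotypes, with log2 fold changes of -1.18 and -1.12 for Gstt2 and -0.52 and -0.84 for Gstt3. All 4 of these calls were lost under equal totals, where Gstt3 in WT turned to 0.18 (limma adjusted p = 0.458), and the WT call of Gstt3 (adjusted p = 0.0496 as deposited) was lost in 12 of 20 alternatives. That of Gstt2 was lost in 4 of 20 in WT and 5 of 20 in Acot12-/-. Gstt1 had -0.50 (SE 0.22, limma adjusted p = 0.0806) in WT, which passed with same-numbered kidneys as a block (adjusted p = 0.0455), and -0.39 (SE 0.22, adjusted p = 0.157) in Acot12-/-. Gstp1, the abundant enzyme of the pi class, measured 77.3 to 116 FPKM in WT CL and 107 to 143 in WT UUO, and was called in neither genotype (log2 fold changes 0.37 and -0.33, SE 0.31 for both). Gstp2, at 0.921 to 5.61 FPKM, was not called either. Without Acot12-/- CL replicate 2, Gstm1, Gstm4 and Gstp1 were called lower in Acot12-/- mice, in a fit that called 63.4% of all genes.

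The second question was how the genotypes differed in kidneys that had not been obstructed. Between Acot12-/- CL and WT CL, 6 of 37 members were called, 5 higher and 1 lower in Acot12-/-, where 4.48% of all genes were called, 1.12% higher and 3.36% lower. The median log2 fold change of the members was 0.25, beside 0.01 over all genes. The higher members were Ugt1a7c, Ugt1a2, Ugt2b34, Gsta2 and Gsto1, and the lower one was Ugt2b5. Ugt1a2 is among the 37 only through its Acot12-/- CL libraries, and its place in the count follows in part from that. The libraries of the genotypes did not overlap for 12 members, 8 higher and 4 lower in Acot12-/-, where 8.6% and 9.73% of all genes had this pattern. With only the 6 CL libraries fitted, none of the 37 was called, and 1 of all genes was. Over the fits that left out 1 library, between 2 and 9 members were called, with 2 without WT CL replicate 1 and 2 without Acot12-/- CL replicate 1, where 1.43% and 1.53% of all genes were. Without Acot12-/- CL replicate 2, which stands apart, 9 were called, the 6 above and also Gstp1, Sult1a1 and Ugt2b37, in a fit that called 22.1% of all genes.

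Cell type markers moved with this comparison as well. Of 9 endothelial markers 8 were called lower in Acot12-/- CL, with sums of 176 to 284 FPKM in WT CL and 63.3 to 95.6 in Acot12-/- CL. Of 10 macrophage markers 4 were lower, with sums of 161 to 185 and 55.5 to 122.6 FPKM, and 2 of 10 fibroblast markers were lower, with sums of 143 to 183 and 48.4 to 114. Of 5 lymphocyte markers tested 3 were lower, and the 9 listed summed to 9.5 to 16.0 and 3.2 to 4.1 FPKM. Of 10 markers of the thick limb and distal nephron 1 was lower. Over all genes 3.36% were called lower. None of the 13 proximal tubule markers was called, 3 of them having an unadjusted p under 0.05, and their median log2 fold change was 0.49. The part of these differences in the members' values was not tested.

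Ugt1a7c had the lowest adjusted p of the 6. It measured 52.0, 50.03 and 47.4 FPKM in WT CL and 131, 118 and 98.3 in Acot12-/- CL, with no overlap. The log2 fold change was 1.19 (SE 0.20, limma adjusted p = 0.00928), 1.17 without Acot12-/- CL replicate 2 (adjusted p = 0.00641), and 0.0673 was the adjusted p with only the CL libraries. After obstruction it measured 19.3, 31.0 and 19.3 FPKM in WT and 21.2, 15.3 and 15.7 in Acot12-/-, which overlapped. The fall from CL to UUO was -1.1 (SE 0.20, adjusted p = 0.000863) in WT and -2.67 (SE 0.20, adjusted p = 1.47e-06) in Acot12-/-, and the WT call was lost under equal totals. As 51.6% of its stretches of 100 bases occur in other Ugt1a genes, part of these values may belong to those.

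Ugt1a2, from the same locus, was listed at 0, 0 and 0.315 FPKM in WT CL and measured 1.72, 5.45 and 1.47 in Acot12-/- CL. In UUO kidneys it measured 0.287, 0.312 and 0.148 FPKM in WT and 0.502, 0.656 and 0.054 in Acot12-/-. As it passed the threshold only in Acot12-/- CL, the log2 fold change of FPKM + 1 between the CL groups, 1.68 (SE 0.31), and 1.24 without the highest library, is a description. Ugt2b34 measured 0.503, 5.39 and 5.5 FPKM in WT CL and 15.6, 36.1 and 13.2 in Acot12-/- CL, so that the CL groups did not overlap although each had 1 library far from the others. The log2 fold change was 2.38 (SE 0.50, limma adjusted p = 0.0212), and 1.96 without Acot12-/- CL replicate 2 (adjusted p = 0.0237), and the call was lost without Acot12-/- CL replicate 1. In UUO kidneys Ugt2b34 measured 4.26, 2.66 and 2.496 FPKM in WT and 5.38, 3.76 and 4.22 in Acot12-/-, and the fall was called in Acot12-/- (-1.93, SE 0.50, adjusted p = 0.00628) but not in WT (0.04, SE 0.50, adjusted p = 0.959).

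Gsta2 measured 68.2, 101 and 137 FPKM in WT CL and 214, 346 and 235 in Acot12-/- CL, again with no overlap. The log2 fold change was 1.39 (SE 0.31, limma adjusted p = 0.0289), and 1.18 without Acot12-/- CL replicate 2 (adjusted p = 0.029), and the call was lost without WT CL replicate 1 or 2 or Acot12-/- CL replicate 1. In UUO kidneys it measured 92.8, 139 and 154 FPKM in WT and 162, 94.6 and 175 in Acot12-/-, which overlapped. The fall in Acot12-/- (-0.90, SE 0.31, adjusted p = 0.03) was not called without Acot12-/- CL replicate 2 or Acot12-/- UUO replicate 2, with only the groups compared fitted, or under equal totals (-0.35, adjusted p = 0.313). In WT Gsta2 had 0.35 (adjusted p = 0.381), and was called higher under equal totals (1.08, adjusted p = 0.00483). As 28.4% of its stretches of 100 bases occur in other genes, part of these Gsta2 values may belong to those. Gsto1 differed by 0.81 (SE 0.16, adjusted p = 0.0161) between the CL groups, the values of which were given above, and its WT CL libraries lay below all others. That call was lost without WT CL replicate 1 or 3 or Acot12-/- CL replicate 1. Ugt2b5 was lower in Acot12-/- CL with a log2 fold change equal to -0.83 (SE 0.20, adjusted p = 0.0337), a call that 7 of the 12 fits without 1 library lost. Ugt2b37, a far more abundant gene of the same cluster, had -0.79 (SE 0.21, adjusted p = 0.0502), which passed with same-numbered kidneys as a block (adjusted p = 0.0475). Under equal totals Gsto1 and Ugt2b5 were no longer called.

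**Figure D4:**
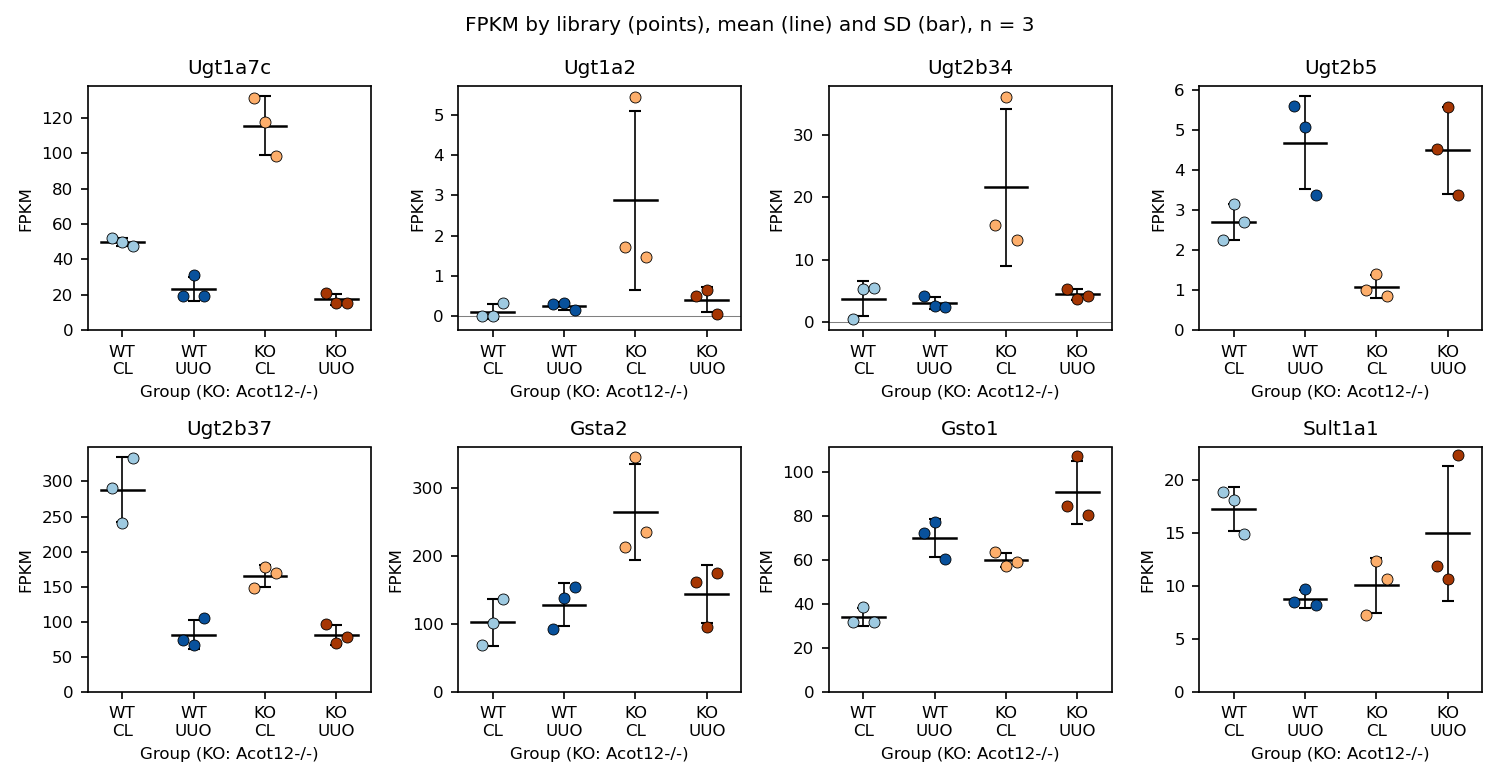
FPKM of 8 members, with 1 point per library, the mean as a line and the SD as a bar (n = 3), on an axis of its own for each gene. Shown are the 6 members called between the CL groups, and Ugt2b37 and Sult1a1, which were called neither there nor for the interaction. For Ugt1a7c, Ugt1a2, Ugt2b34 and Gsta2 the Acot12-/- CL points lie above all WT CL points, while the points of both UUO groups overlap.

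No Sult gene was called between the CL groups. Sult1a1, which sulfonates phenols, measured 18.8, 18.1 and 14.9 FPKM in WT CL and 7.21, 12.3 and 10.6 in Acot12-/- CL, with a log2 fold change equal to -0.75 (SE 0.25, limma adjusted p = 0.128). The groups did not overlap, and without Acot12-/- CL replicate 2 the value was -0.90 (adjusted p = 0.0347). Sult5a1 (-0.50, adjusted p = 0.235), Gstm6 (0.50, adjusted p = 0.219) and Gstm7 (0.56, adjusted p = 0.152) had an unadjusted p under 0.05 only. In all, 11 members had an unadjusted p under 0.05, where 17.3% of all genes did. Ugt1a2, a member only through its Acot12-/- CL libraries, is among the 11.

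Between the obstructed kidneys of the genotypes no member was called, and 3 of 37 had an unadjusted p under 0.05. Over all genes 0.0151% were called, which is 2 genes, and 2.36% had an unadjusted p under 0.05. The 3 members were Gsto1 (log2 fold change 0.37, SE 0.16), Sult1a1 (0.64, SE 0.25) and, as a description, Sult4a1 (-0.59, SE 0.20). Gsto1 and Sult1a1 each had a limma adjusted p of 1.00. Sult4a1 would not have passed the threshold without its WT UUO libraries, so its place in this count follows in part from that. Sult1a1 measured 8.42, 9.66 and 8.14 FPKM in WT UUO and 11.9, 10.7 and 22.3 in Acot12-/- UUO, which did not overlap. Such a pattern was seen for 2 members that were higher and none that was lower, beside 5.5% and 6.48% of all genes. The summed Ugt value was 256 to 585 FPKM in WT UUO and 205 to 500 in Acot12-/- UUO. The summed Gst value was 1022 to 1161 and 944 to 1434 FPKM in the same order. These ranges overlap, and the depth and the spread between 3 kidneys allow no statement on smaller differences.

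The third question was whether the change with obstruction differed between the genotypes. No member passed the test of this difference, in which 0.106% of all genes were called, and 9 of 37 had an unadjusted p under 0.05, beside 10.5% of all genes. The lowest adjusted p was that of Ugt1a7c, the fall of which was larger by 1.57 on the log2 scale in Acot12-/- (interaction -1.57, SE 0.28, limma adjusted p = 0.061). It passed with same-numbered kidneys as a block (adjusted p = 0.019), without Acot12-/- CL replicate 2 (-1.55, adjusted p = 0.0215) and without Acot12-/- CL replicate 3. Sult1a1 fell in WT (-0.90, SE 0.25, adjusted p = 0.0108) and had 0.49 (SE 0.25, adjusted p = 0.12) in Acot12-/-. Under equal totals the WT fall was not called, and Sult1a1 was called higher in Acot12-/- (0.99, limma adjusted p = 0.00175). Its interaction was 1.39 (SE 0.35, adjusted p = 0.13) as deposited and 1.21 (adjusted p = 0.305) under equal totals. The interaction passed without Acot12-/- CL replicate 2 (1.54, adjusted p = 0.0335). The fit without that library called 6.92% of all genes for the difference, and the fit with the block 1.53%. Ugt1a2 had -1.54 (SE 0.43) and -1.1 without that library, a description for the reason given above. The other 6 were Ugt2b34 (-1.97), Gsta2 (-1.25), Gstm6 (-0.71), Ugt2b37 (0.80), Ugt2b5 (0.78) and Sult5a1 (0.68), with adjusted p from 0.299 to 0.447. All of these interactions use the CL groups that differ between the genotypes, so they are not separate evidence from the CL comparison.

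The genes that supply the conjugation enzymes were counted from lists of pathway members. Beside these and the following lists, 23.6% of all genes were called higher and 23.9% lower in WT, and 26.6% and 27.2% in Acot12-/-. Under equal totals the shares were 56.1% and 7.91% in WT, and 45.9% and 11.7% in Acot12-/-. Of 6 genes for UDP-glucuronate, 5 were called lower and none higher in both genotypes, and the median log2 fold change was -0.67 in WT and -0.93 in Acot12-/-. Ugp2, which makes UDP-glucose, measured 72.7 ± 3.61 FPKM in WT CL and 37.0 ± 1.95 in WT UUO (log2 fold change -0.96, SE 0.20, limma adjusted p = 0.00237), and Ugdh, which oxidizes it to UDP-glucuronate, fell by 0.74 (SE 0.21, adjusted p = 0.0133). Under equal totals the WT counts of this list became 0 lower and 1 higher, and in Acot12-/- 3 lower and none higher, while the list lay below the median of all genes for 5 and 6 of its 6 genes. The transporter Slc35d1, which carries UDP-glucuronate into the endoplasmic reticulum, was higher in Acot12-/- CL than in WT CL (0.65, SE 0.14, adjusted p = 0.0268).

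Of 8 genes for PAPS and sulfate, 4 were called lower in WT and 6 in Acot12-/-, none higher. Papss2, which makes PAPS, measured 89.7 ± 9.5 FPKM in WT CL and 25.1 ± 7.2 in WT UUO, with log2 fold changes of -1.83 (SE 0.28, limma adjusted p = 0.000299) in WT and -2.19 (SE 0.28, adjusted p = 5.54e-05) in Acot12-/-. Bpnt1, a phosphatase that clears the spent cofactor, had -1.81 and -2.05. The sulfate transporter Slc13a1, the most abundant of the list, had -0.22 (SE 0.43, adjusted p = 0.697) and -0.85 (SE 0.43, adjusted p = 0.117). Under equal totals the counts were 2 and 4 lower.

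Of 11 genes tested for glutathione synthesis and turnover, 10 were called lower and none higher in both genotypes, with medians of -1.20 and -1.54, and under equal totals 5 and 10 were. Both subunits of the rate-limiting ligase fell, Gclc by 1.09 (SE 0.25, limma adjusted p = 0.00395) and Gclm by 1.12 (SE 0.19, adjusted p = 0.000518) on the log2 scale in WT. Ggt1, which cleaves glutathione at the brush border, had -1.77 and -1.81, and Nat8, which acetylates the resulting cysteine conjugates, had -2.49 and -2.10.

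Other transferases of phase II had 8 of 13 called lower and 3 higher in both genotypes, and under equal totals 5 lower and 5 higher in WT and 5 lower and 4 higher in Acot12-/-. Hpgds and Mgst2 of this list were tested only through UUO libraries, so a call of either as higher would follow in part from the threshold. Inmt, a methyltransferase, and Glyat, which conjugates glycine, were the most abundant, with log2 fold changes of -3.71 and -2.40 in WT and -2.82 and -2.18 in Acot12-/-. Nnmt, which methylates nicotinamide, went from 2.81 ± 0.56 to 13.2 ± 2.9 FPKM in WT (1.89, SE 0.20, limma adjusted p = 2.92e-05) and from 0.859 ± 0.35 to 12.0 ± 1.8 in Acot12-/- (2.81, SE 0.20, adjusted p = 1.06e-06). It was the 1 gene of the list called between the CL groups, lower in Acot12-/- (-1.04, SE 0.20, adjusted p = 0.0146).

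Target genes of NRF2, the factor that binds the antioxidant response element, went both ways, with 8 of 18 called lower in each genotype and 4 and 3 higher, and under equal totals 3 and 5 lower and 8 and 6 higher. Nqo1, a quinone reductase, fell by 1.57 (SE 0.31, limma adjusted p = 0.00148) in WT and by 1.75 (SE 0.31, adjusted p = 0.000533) in Acot12-/-, while Hmox1, which degrades haem, had 0.74 (SE 0.29, adjusted p = 0.0529) and 0.42 (SE 0.29, adjusted p = 0.241). The gene of NRF2 itself, Nfe2l2, had 0.45 (SE 0.19, adjusted p = 0.0743) and 0.32 (SE 0.19, adjusted p = 0.184).

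Of 13 regulators, 3 were called lower in each genotype and 1 and 2 higher, and under equal totals 0 and 2 lower and 8 and 7 higher. Under equal totals 56.1% and 45.9% of all genes were called higher. Hnf4a, a factor of tubule and liver cells, measured 158 ± 5.2 FPKM in WT CL and 70.3 ± 9.7 in WT UUO, with log2 fold changes of -1.17 (SE 0.18, limma adjusted p = 0.000243) and -1.60 (SE 0.18, adjusted p = 1.83e-05), and Ppara, a receptor for fatty acids, had -0.80 and -1.59. Nr1i2, the pregnane X receptor, was called higher in both (1.00 and 0.51, adjusted p = 0.00101 and 0.0369), from 1.31 ± 0.62 FPKM in WT CL.

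Of 10 transporters that export conjugates or take up organic anions, 5 were called lower in each genotype and 3 and 4 higher, and under equal totals 3 and 5 lower and 4 and 4 higher. The uptake transporters Slc22a6 and Slc22a8 had -2.78 and -3.03 in WT and -3.36 and -3.88 in Acot12-/-, and the apical export pump Abcc2 had -1.14 and -1.73. The export pumps Abcc1, Abcc3 and Abcc4 were called higher in both genotypes. Abcc3 was below 1 FPKM in every CL library and was tested only through its UUO libraries. Its place in these counts follows in part from the threshold. As a description, it went from 0.553 ± 0.38 to 3.95 ± 1.1 FPKM in WT (log2 fold change 1.67, SE 0.21).

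No gene of the glutathione, PAPS, NRF2, regulator and export lists was called between the CL groups, where 4.48% of all genes were. Between 1 and 2 genes of each list had an unadjusted p under 0.05 there, beside 17.3% of all genes. Between the UUO groups and for the difference of the responses, no gene of the 7 lists was called.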

How the data were processed

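RNA from 12 kidney cortex samples was sequenced as directional libraries on a NovaSeq instrument, and trimming, mapping and normalization were done for the authors by a service provider. The submitters' processing notes name mm10 and edgeR. The aligner is not given in the sources used here. The authors deposited FPKM per gene symbol. The unit was read from the numbers: low ones move in equal steps, smaller for longer transcripts, from which depth was estimated. Counts were not recovered, so a count test was not run.

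Groups followed the sample titles. Log2(FPKM + 1) was fitted with limma 3.58.1 (R 4.3.3) over all 12 libraries, with a mean for each group and a variance trend. Genes with at least 1 FPKM in at least 3 libraries were tested, except 28 listed at 0 beside at least 10 FPKM in their own group, none of which is a member, leaving 13243. Calls needed a p under 0.05 after Benjamini-Hochberg adjustment. The fit was tested on simulated data.

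Named were the 4 highest members of each family, the 3 largest called rises and falls per family and genotype, members with an unadjusted p under 0.05 in a genotype contrast or the interaction, those at the threshold, and up to 4 called genes per pathway list; other genes were added after their values were seen. Members and lists were chosen with earlier results of these data known. Fold changes on this scale understate changes of low genes.

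Same-numbered CL and UUO kidneys tended to deviate together. The correlations of their residuals were 0.134 to 0.364 in WT and 0.186 to 0.322 in Acot12-/-, beside at most 0.139 and -0.0748 for differently numbered ones. In WT these values met, so the pairing is less certain there. The main fit did not use the numbers. A block on them, which takes them to pair kidneys, was an alternative. The others were the pseudocount (0.1), no filter, median-ratio and equal-total scaling, no trend, keeping the genes listed at 0, fitting only the groups compared, and leaving out each library. Protein sequences were not used here.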

Additional observations from a re-analysis of the deposited data

How the results depend on the processing

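In number, the calls between UUO and CL kidneys held best. Over all alternatives the members called were 19 to 26 in WT, and 19 to 26 in Acot12-/-. Of all genes, 35.9% to 64.8% were called in WT and 40.3% to 63.4% in Acot12-/-. The genes behind these numbers changed with the scaling. Under equal totals 10 member calls were lost and 4 gained in WT, and 8 lost and 1 gained in Acot12-/-, with all gained ones higher in UUO. Leaving out 1 library gave 19 to 26 in WT and 23 to 26 in Acot12-/-. The comparison of the CL groups depended most on the settings: with only the groups compared fitted, 0 members and 1 of all genes were called, and leaving out 1 library gave 2 to 9 members. For the interaction, leaving out 1 library gave 0 to 3 members, and 3 was reached without Acot12-/- CL replicate 2, where 916 of 13243 genes passed. With same-numbered kidneys as a replicate block, which uses the pairing, 1 member (Ugt1a7c) passed the interaction, Gstt1 was added in WT UUO against CL and Ugt2b37 between the CL groups, and no other member's call changed. Under equal totals the sign between UUO and CL kidneys reversed for 7 members in WT and 4 in Acot12-/-; the 1 called value among them was Gstt3 in WT (-0.52 as deposited, 0.18 under equal totals), and Gstm1 had 0.52 in WT and 0.075 in Acot12-/-. In fits without 1 library, signs also reversed for Gsta4, Gstp2, Ugt1a6a, Ugt1a10 and Ugt2b34 in WT, and for Gsta1 in Acot12-/-. None of these values was called as deposited. Ugt2b34 had -0.66 without WT CL replicate 1 and -0.15 without WT UUO replicate 1, with a range of -0.66 to 0.39 over the fits without 1 library. Its WT CL replicate 1 measured 0.503 FPKM beside 5.39 and 5.5, and the cause was not tested. Between the UUO groups no member was called under any alternative. For members under 1 FPKM, counting error is seen only as spread between 3 kidneys.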
